A study of Mus musculus with 13 samples.

Results

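The 31 genes described here make, convert, export and cross-link the lipids of the epidermal water barrier. They were chosen by name, as genes of sphingolipid, acylceramide and lipid envelope metabolism, and not by their values in these samples. Earlier results of these data were known when the choice was made. All 31 genes were found among the 49315 genes counted, and all 31 passed the filter on low counts that left 20168 genes for testing. By role they form 4 groups, with 12 genes of ceramide synthesis, 7 of ceramide conversion and breakdown, 7 of acylceramide formation and lamellar body export, and 5 that build the lipid envelope and cross-link the cornified envelope.

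Ceramides are made from serine and palmitoyl-CoA by serine palmitoyltransferase, after which ceramide synthases attach a fatty acid and desaturases or hydroxylases finish the molecule. In the upper epidermis, very long fatty acids are omega-hydroxylated and esterified with linoleate to form acylceramides, which leave the cell in lamellar bodies and are rebuilt into the lipid sheets that keep water in. Lipoxygenases and a dehydrogenase then prepare acylceramides for attachment to the cornified envelope, a protein shell cross-linked by transglutaminases. Inherited loss of many of these genes is known to cause ichthyosis in humans and a failing barrier in newborn mice.

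RNA-Seq of full-thickness back skin at postnatal day 4 (P4) compared 3 WT mice with 3 littermates labelled DKO, with 1 library per mouse. The DKO mice are *K14Cre+ Kctd1 fl/fl Kctd15 fl/fl*. In them, Cre driven by the keratin 14 promoter acts in keratinocytes and removes a floxed exon of each gene, while dermal, muscle, fat and blood cells of the same sample keep both genes. Whether the WT mice carried Cre or a floxed allele is not given in the sources used here. The comparison asks what the loss of both KCTD1 and KCTD15 from keratinocytes changes in young skin. The series also has 7 libraries of epidermis from mice 3 weeks old, 4 from DKO mice and 3 from *K14Cre+ Kctd15 fl/fl* mice, which hold a count of 0 for every gene in the files used here and give no value.

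The 6 P4 libraries held 11263863 to 17643043 counts on genes. A count of 3, taken as the floor, equals 0.17 to 0.266 CPM (counts normalized to library size), which covers counting error only because PCR copies were not told apart. The lowest count of any of the 31 genes in any library was 85, for *Lipn*, so none was near this floor. Values per library follow the order of replicates 1 to 3 throughout. *Kctd1* held 443, 410 and 442 normalized counts in WT and 506, 985 and 735 in DKO, and *Kctd15* held 736, 737 and 763 in WT and 1131, 1509 and 1325 in DKO. Counts over the whole gene do not resolve the removed exons, so these values do not check the genotype labels. DKO replicate 1 stood apart, with the fewest counts and 21286 CPM on a list of 15 skeletal muscle genes, against 9771 to 10003 in the other DKO libraries and 6048 to 6960 in WT. Counts of the 31 genes are given with and without the libraries that change them most.

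None of the 31 genes was called between P4 WT and DKO skin, where a call needed an edgeR adjusted p under 0.05 together with a log2 fold change beyond 1 in either direction. Over all genes tested, 14 were called, or 0.0694%. The fitted log2 fold changes of the 31 genes ran from −1.42 for *Fa2h* to 0.83 for *Degs2*, with a median of −0.05 against 0.02 over all genes tested. Of the 31, 19 were lower and 12 higher in DKO, and the share of all genes tested that were lower was 47.1%. An unadjusted p under 0.05 was found for 5 of them, 3 lower (*Fa2h*, *Cers4* and *Cers6*) and 2 higher (*Degs2* and *Alox12b*), where the background over all genes was 2.54% lower and 4.96% higher, or 7.5% in all. The normalized counts of WT and DKO did not overlap for 8 of the 31, against a background of 13.2%.

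**Figure D1:**
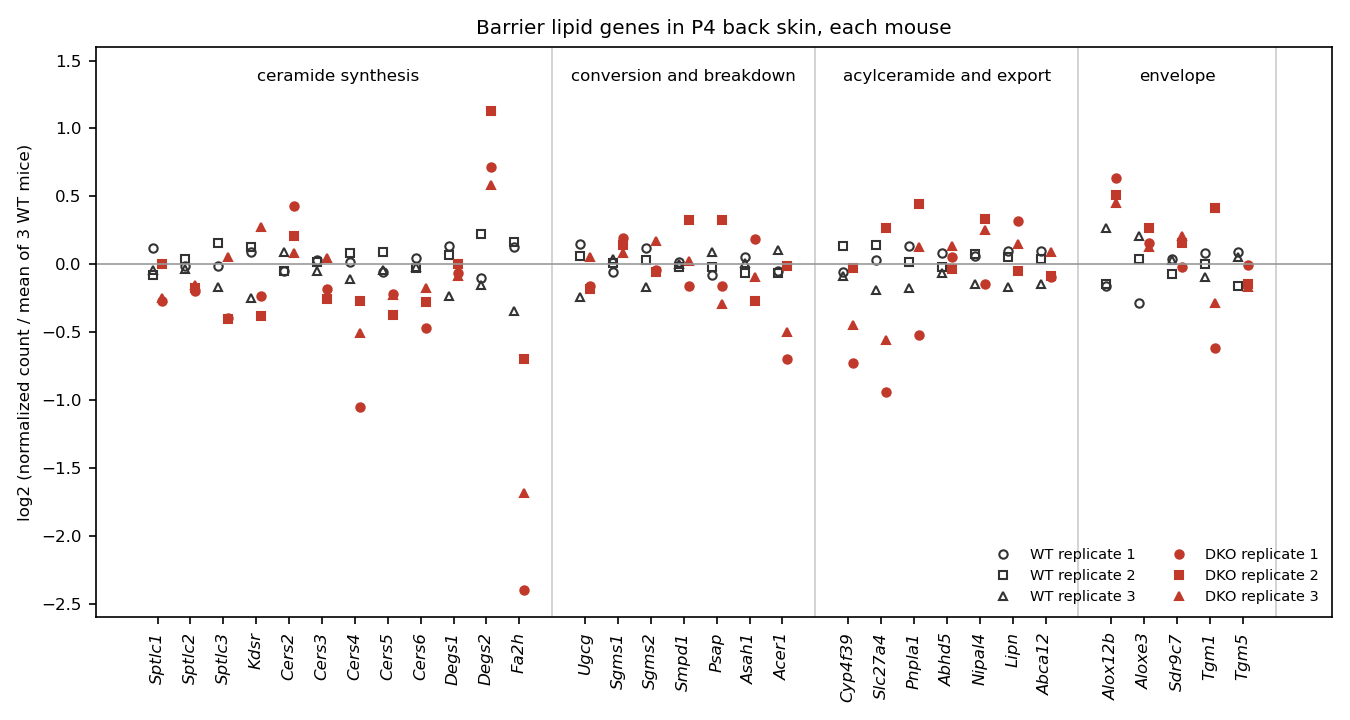
Normalized count of each of the 31 genes in each of 6 mice, as log2 of its ratio to the mean of the 3 WT mice (vertical axis), with genes grouped by role along the horizontal axis. Open black symbols are WT and filled red symbols DKO mice, and circles, squares and triangles are replicates 1, 2 and 3. *Fa2h* lies lowest in DKO, *Degs2* highest, and most other genes within about 1 log2 unit.

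The 95% interval of the log2 fold change lay within 1 log2 unit of no change for 29 of the 31 genes, with *Degs2* and *Fa2h* as the exceptions, and within 0.5 for 14 of them. Standard errors ran from 0.12 to 0.35, with a median of 0.15. Without DKO replicate 2, 1 gene was called (*Fa2h*), 10 had an unadjusted p under 0.05 against a background of 12.4%, and 16 did not overlap against 29.3%. Without DKO replicate 1, 0 were called by edgeR, 4 had an unadjusted p under 0.05 against 7.35%, and 14 did not overlap against 22.4%.

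**Figure D2:**
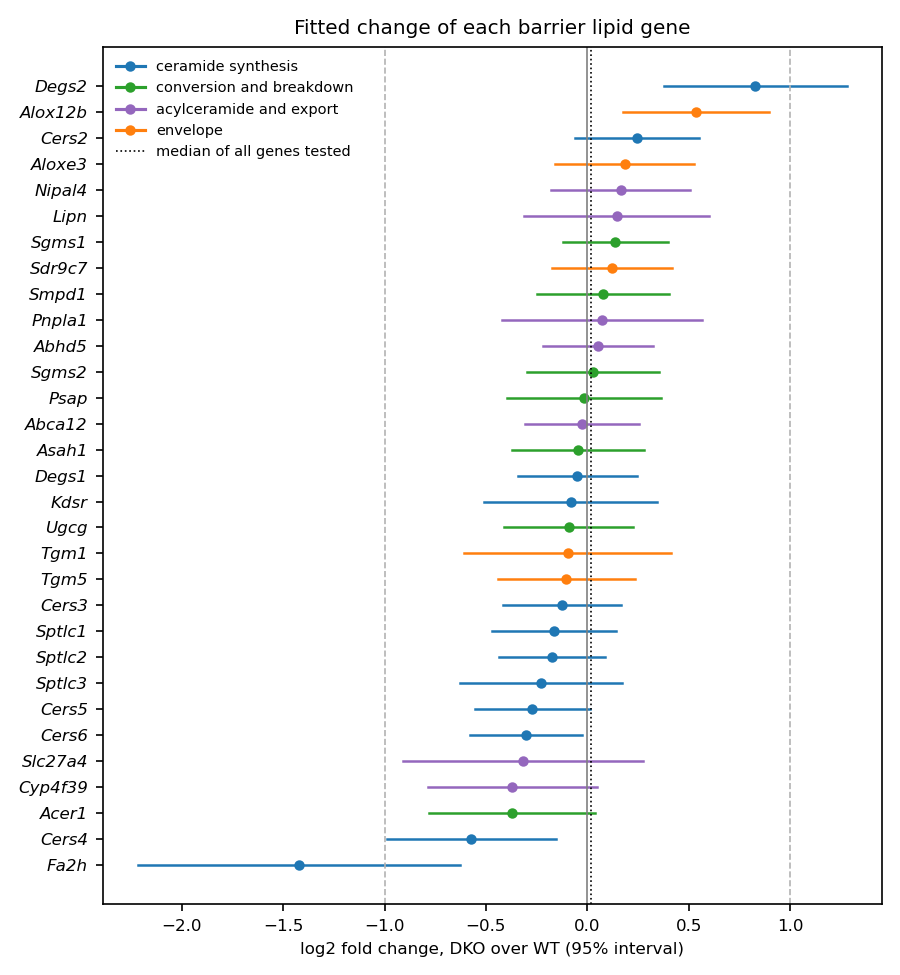
Fitted log2 fold change of each gene, DKO over WT (horizontal axis), with its 95% interval as a bar, ordered from highest to lowest and colored by role. The dotted line is the median of all 20168 genes tested and the dashed lines mark a log2 fold change of 1 in either direction. Only the intervals of *Degs2* and *Fa2h* cross a dashed line.

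The genes of ceramide synthesis were the group with the most members apart. Of the 12, 10 were lower in DKO, with a median log2 fold change of −0.17. The groups did not overlap for 5 that were lower (*Fa2h*, *Cers4*, *Cers6*, *Cers5* and *Sptlc2*), where the background for lower genes was 5.96%, and for 1 that was higher (*Degs2*), where it was 7.24%. The median log2 ratio of the 12 genes to their WT means was 0.02, 0.08 and −0.08 in the WT libraries and −0.23, −0.26 and −0.12 in the DKO libraries. All 3 DKO libraries were below all 3 WT libraries in this median, which was not tested.

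*Fa2h* encodes the fatty acid 2-hydroxylase that makes the alpha-hydroxy fatty acids of skin ceramides and of sebaceous lipids. Its gene lies at chr8:111345135-111393824 on the minus strand of GRCm38. Its normalized counts were 2577, 2632 and 1855 in WT against 447, 1452 and 734 in DKO. Every DKO library was below every WT library, and DKO replicates 1 and 2 differed more from each other than any pair of WT libraries. The fitted level in DKO was 0.373 of that in WT, with a log2 fold change of −1.42 (SE 0.35, edgeR adjusted p = 0.281, n = 3 per group). It passed as a call with DESeq2 (log2 fold change −1.44, adjusted p = 0.00207), where 0.783% of the genes with an adjusted p were called. It was also called in edgeR without the low-count filter, where 0.624% of genes were called, and without DKO replicate 2, where 0.159% were. Over its alternatives the adjusted p ranged from 8.15e-08 to 0.856. Titles of the samples open with 1 of 2 numbers, 47347 or 40972, which mice of both genotypes share and whose meaning the labels do not give. Within the first number (2 mice per genotype) the log2 ratio of DKO to WT was −1.25, and within the second (1 mouse per genotype) it was −2.05.

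*Degs2* encodes the desaturase and hydroxylase that makes phytoceramides. It held 130, 163 and 126 normalized counts in WT and 230, 306 and 209 in DKO. All DKO libraries were above all WT libraries. The fitted level was 1.77-fold higher in DKO, with a log2 fold change of 0.83 (SE 0.2, edgeR adjusted p = 0.274, n = 3 per group) and a 95% interval of 0.38 to 1.28. The log2 ratio was 0.81 within the first title number and 0.87 within the second. DESeq2 gave an adjusted p of 0.0513, and the range over the alternatives was 0.0488 to 0.912. Its exons share 485 bases, or 13.6% of its length, with exons of *Evl* on the opposite strand, and whether counting used the strand is not given in the sources used here. *Evl* itself had a log2 fold change of 0.04 (SE 0.19, edgeR adjusted p = 0.981, n = 3 per group).

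The ceramide synthases *Cers2* to *Cers6* differ in the length of the fatty acid they attach. *Cers4*, which uses long and very long acyl chains, held 2198, 2308 and 2022 normalized counts in WT and 1050, 1804 and 1536 in DKO. Its DKO libraries all lay below WT, and replicate 1 was the lowest. The log2 fold change was −0.57 (SE 0.19, edgeR adjusted p = 0.439, n = 3 per group). *Cers6*, which makes ceramides with palmitate as the acyl chain, held 1793, 1702 and 1709 in WT and 1253, 1428 and 1535 in DKO, with a log2 fold change of −0.30 (SE 0.12, edgeR adjusted p = 0.607, n = 3 per group). *Cers5*, which also uses palmitate, held 805, 892 and 814 in WT and 718, 648 and 716 in DKO, and the log2 fold change was −0.27 (SE 0.13, edgeR adjusted p = 0.693, n = 3 per group). Both genes were lower in every DKO library than in any WT library. *Cers2*, the most widely expressed of the family, had a log2 fold change of 0.25 and *Cers3*, the synthase of ultra-long acyl chains that epidermal acylceramides need, of −0.13, and both had overlapping groups.

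Serine palmitoyltransferase and the reductase after it differed little. *Sptlc2*, a catalytic subunit, held 1108, 1148 and 1088 normalized counts in WT and 974, 986 and 1003 in DKO. Its libraries were the tightest of those apart, and the log2 fold change was −0.17 (SE 0.12, edgeR adjusted p = 0.865, n = 3 per group). The shared subunit *Sptlc1*, the alternative catalytic subunit *Sptlc3* and the ketodihydrosphingosine reductase *Kdsr* had log2 fold changes of −0.17, −0.23 and −0.08, with overlapping groups. *Degs1*, the main dihydroceramide desaturase and the highest of the 12 per length, held 2401, 2299 and 1862 in WT and 2093, 2191 and 2057 in DKO. Its DKO libraries all lay within the WT range, and the log2 fold change was −0.05 (SE 0.13, edgeR adjusted p = 0.973, n = 3 per group).

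Promoter sequences were read from RefSeq for the genes with an unadjusted p under 0.05, because KCTD1 and KCTD15 are known as inhibitors of AP-2 transcription factors. The study reports that heterozygosity for AP-2α, alone or with AP-2β, did not rescue the skin of these DKO mice. It proposes that AP-2 hyperactivation is likely not critical for the appendage defects, or that AP-2 acts there together with other pathways. An entry was matched for 28 of the 31 genes, with 39 promoters of 300 bases (250 before and 50 after the start). *Fa2h*, *Asah1* and *Aloxe3* had no entry in that table. The AP-2 motif GCCNNNGGC, which reads the same on both strands, was in 14 of the 39 promoters (35.9%) and in 12 of the 28 genes (42.9%). It was in 16.6% of all 32851 promoters in the table, in 23.6% of the 16049 promoters of genes tested here and in 27.4% of those genes. Median GC content was 60.7% for promoters of the 31 genes, 52.7% for all promoters and 59.7% for promoters of genes tested. The AP-1 motif TGANTCA was in 5 of the 39 promoters (12.8%), against 7.81% of all and 5.86% of those of genes tested. The PPAR direct repeat (AGGTCA in tandem with 1 base between) was in 0 of 39, against 0.0396% of all and 0.0312% of those of genes tested. Each motif was searched on both strands. The lines below give 270 bases of 4 promoters, 5′ to 3′ on the gene's own strand and ending 20 bases after the start, with AP-2 matches in capitals (GRCm38.p6).
*Degs2* (chr12:108702287-108702556, minus strand): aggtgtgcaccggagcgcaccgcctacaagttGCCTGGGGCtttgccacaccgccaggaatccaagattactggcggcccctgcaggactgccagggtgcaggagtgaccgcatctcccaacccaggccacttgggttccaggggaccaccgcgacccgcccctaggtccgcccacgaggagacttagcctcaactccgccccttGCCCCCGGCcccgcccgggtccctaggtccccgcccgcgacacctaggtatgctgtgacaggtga
*Alox12b* (chr11:69156822-69157091, plus strand): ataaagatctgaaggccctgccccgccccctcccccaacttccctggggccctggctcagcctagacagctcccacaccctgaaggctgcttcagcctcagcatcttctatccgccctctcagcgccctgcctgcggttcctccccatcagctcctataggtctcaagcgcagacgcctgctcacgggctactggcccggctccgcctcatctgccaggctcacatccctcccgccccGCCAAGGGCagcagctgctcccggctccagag
*Cers4* (chr8:4493155-4493424, plus strand): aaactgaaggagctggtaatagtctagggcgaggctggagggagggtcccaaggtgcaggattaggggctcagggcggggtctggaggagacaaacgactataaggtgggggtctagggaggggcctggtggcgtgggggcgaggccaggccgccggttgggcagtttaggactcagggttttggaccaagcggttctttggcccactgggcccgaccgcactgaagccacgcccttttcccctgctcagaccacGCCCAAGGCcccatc
*Cers6* (chr2:68861191-68861460, plus strand): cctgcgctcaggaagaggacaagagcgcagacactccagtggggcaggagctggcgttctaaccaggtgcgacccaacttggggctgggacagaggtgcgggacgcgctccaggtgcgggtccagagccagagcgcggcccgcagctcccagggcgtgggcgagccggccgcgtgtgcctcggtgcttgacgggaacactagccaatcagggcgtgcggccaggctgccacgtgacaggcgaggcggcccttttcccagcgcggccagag
The *Degs2* window holds the motif in 2 places, the *Alox12b* and *Cers4* windows in 1 each, and the *Cers6* window has no match. Of these 4 genes, *Degs2* and *Alox12b* were higher and *Cers4* and *Cers6* lower in DKO, each with an edgeR adjusted p over 0.05. A match is a description of the sequence, and its relation to these values was not tested.

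Genes of ceramide conversion and breakdown lay near no change. Of the 7, 4 were lower and 3 higher, with a median log2 fold change of −0.02 and a range from −0.37 (*Acer1*) to 0.14 (*Sgms1*). *Sgms1*, a sphingomyelin synthase of the Golgi, held 1144, 1199 and 1225 normalized counts in WT and 1358, 1309 and 1260 in DKO. Its groups did not overlap, although the nearest libraries were close, and the log2 fold change was 0.14 (SE 0.12, edgeR adjusted p = 0.908, n = 3 per group). *Psap*, the precursor of the saposins that lysosomal sphingolipid hydrolases need, held 5184, 5419 and 5845 in WT and 4901, 6880 and 4477 in DKO. Its DKO libraries lay on both sides of the WT range, and the log2 fold change was −0.02 (SE 0.17, edgeR adjusted p = 0.991, n = 3 per group). *Acer1*, the alkaline ceramidase of the upper epidermis, had means of 721 ± 46.9 in WT and 557 ± 140 in DKO (SD, n = 3 each), with overlapping groups. The glucosylceramide synthase *Ugcg*, the sphingomyelin synthase *Sgms2*, the acid sphingomyelinase *Smpd1* and the acid ceramidase *Asah1* had log2 fold changes from −0.09 to 0.08.

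Acylceramide formation and export showed no member apart. Of the 7 genes, 3 were lower and 4 higher, with a median log2 fold change of 0.05, and none had an unadjusted p under 0.05 or separate groups. *Slc27a4*, the fatty acid transporter and acyl-CoA synthetase FATP4, held 2167, 2338 and 1866 normalized counts in WT and 1107, 2562 and 1444 in DKO. Replicate 2 was the highest of all 6 libraries while the other DKO libraries were below WT, and the log2 fold change was −0.32 (SE 0.26, edgeR adjusted p = 0.907, n = 3 per group). It was −0.73 without DKO replicate 2 and −0.12 without DKO replicate 1. *Cyp4f39*, the omega-hydroxylase of ultra-long fatty acids, had a log2 fold change of −0.37 with overlapping groups. *Pnpla1*, which transfers linoleate to make acylceramides, its coactivator *Abhd5*, and *Nipal4*, a membrane protein needed for barrier lipids, had log2 fold changes of 0.07, 0.05 and 0.16. *Abca12*, the transporter that loads lamellar bodies, had means of 4329 ± 375 in WT and 4246 ± 322 in DKO (SD, n = 3 each). *Lipn*, a lipase of the granular layer, had the lowest counts of all, 97.1 ± 9.4 in WT and 107 ± 13.6 in DKO (SD, n = 3 each). Exons of *Abhd5* and *Pnpla1* share 950 and 644 bases with antisense genes, whose counts over the 6 libraries were 666 and 38 against 6431 and 5384 for the genes themselves.

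Among the 5 envelope genes, *Alox12b* was apart. It encodes the lipoxygenase that takes the first oxidation step on the linoleate of acylceramides. Its normalized counts were 338, 342 and 455 in WT and 589, 541 and 517 in DKO, and every DKO library was above every WT library. The fitted level was 1.45-fold higher in DKO, with a log2 fold change of 0.53 (SE 0.16, edgeR adjusted p = 0.384, n = 3 per group) and ratios of 0.64 and 0.37 on the log2 scale within the first and the second title number. *Aloxe3*, which acts on the product of *Alox12b* and is its neighbor on chromosome 11, and the dehydrogenase *Sdr9c7*, which takes the next step, had log2 fold changes of 0.19 and 0.12 with overlapping groups. *Tgm1*, the main transglutaminase of the cornified envelope, held 1746, 1657 and 1549 in WT and 1079, 2198 and 1353 in DKO. Its DKO libraries lay above and below the whole WT range, with a log2 fold change of −0.10 (SE 0.23, edgeR adjusted p = 0.968, n = 3 per group). *Tgm5* had a log2 fold change of −0.10. The median of the 5 was 0.12.

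Levels per length, as reads normalized to gene length and library size (RPKM), spanned a wide range in WT skin. *Psap* was the highest at 132 ± 8.05 RPKM (SD, n = 3), followed by *Degs1* at 55.6 ± 7.28 and *Fa2h* at 51.6 ± 9.5, and the WT ranges of *Degs1* and *Fa2h* overlapped. *Tgm1* (36.2 ± 2.16) and *Slc27a4* (31.7 ± 3.57) came next, also with overlapping ranges, and from *Smpd1* (24.7 ± 0.33) to *Cers5* (15.6 ± 0.892) each gene overlapped the next. *Lipn* (3.4 ± 0.329) and *Degs2* (2.58 ± 0.374) were the lowest, and their WT libraries did not overlap. In DKO, *Fa2h* stood at 19.2 ± 11.3 RPKM (SD, n = 3) and had rank 9 in place of rank 3, while *Degs2* stood at 4.58 ± 0.936 and *Lipn* at 3.76 ± 0.475. *Psap* and *Degs1* kept ranks 1 and 2.

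**Figure D3:**
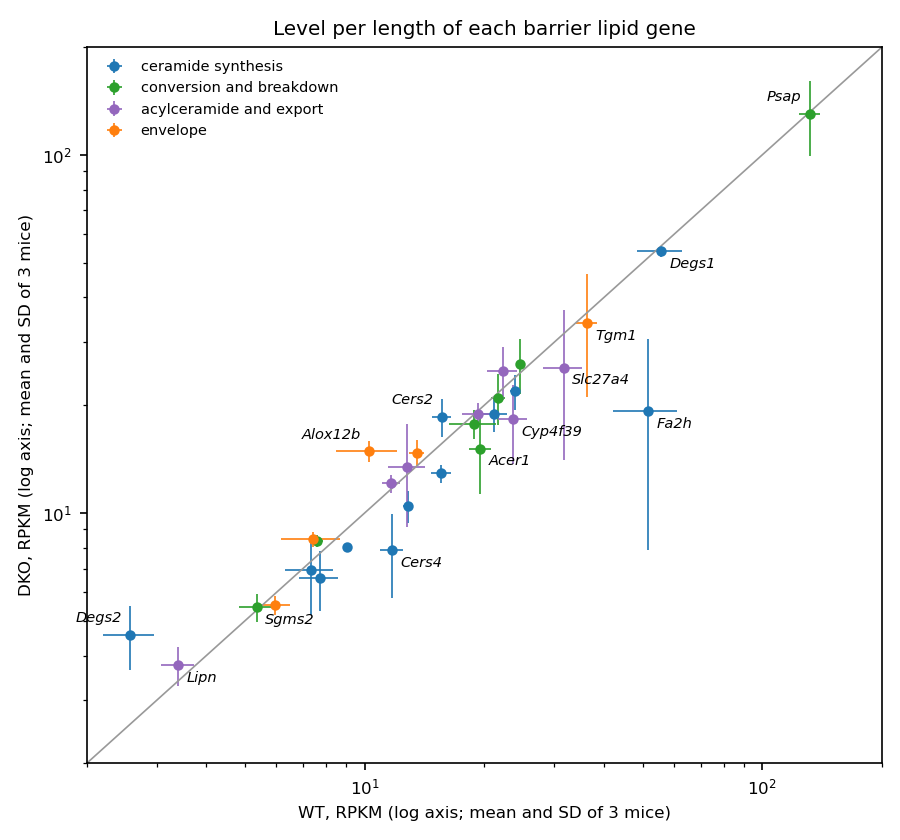
Mean level per length of each gene in WT (horizontal axis) and DKO skin (vertical axis), in RPKM on log axes, with the SD of 3 mice as bars and the diagonal of equal level. *Fa2h* lies well below the diagonal, *Degs2* and *Alox12b* above it, and *Psap* is the highest in both groups.

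Shares within a family were compared as well, because a share inside a library does not depend on its scaling. Each share is an isozyme's counts per kilobase over the sum of the isozymes compared, which were taken from the 31 genes. Other relatives, such as *Tgm3* (32.2 RPKM in WT) and *Alox12e* (10.4 RPKM in WT), were not in these sums. An exact two-sided permutation test was run on 11 shares, which with 3 mice against 3 cannot give a p below 0.1. *Cers2* made up 19.7% ± 1.38 of the 5 ceramide synthases in WT and 26.0% ± 3.79 in DKO (SD, n = 3, exact p = 0.1, adjusted 0.22). *Cers4* made up 14.7% ± 0.752 in WT and 10.97% ± 2.87 in DKO, and *Cers6* 16.2% ± 0.549 in WT and 14.6% ± 1.16 in DKO (SD, n = 3, both exact p = 0.1, adjusted 0.22). The single values of these 3 shares did not overlap between the groups. Shares of a family are parts of one sum, so they are not independent of one another. The share of *Cers3* was 30.0% ± 0.621 in WT and 30.5% ± 2.48 in DKO (SD, n = 3, exact p = 0.8, adjusted 0.8), and that of *Cers5* was 19.5% ± 0.877 and 18.02% ± 0.942 (SD, n = 3, exact p = 0.2, adjusted 0.367).

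*Degs2* made up 4.45% ± 0.581 of both desaturases in WT and 7.81% ± 1.22 in DKO, without overlap (SD, n = 3, exact p = 0.1, adjusted 0.22). Of the 2 lipoxygenases compared, *Aloxe3* made up 42.0% ± 2.74 in WT and 36.2% ± 1.9 in DKO, also without overlap (SD, n = 3, exact p = 0.1, adjusted 0.22). The fitted level of *Aloxe3* itself was not lower in DKO (log2 fold change 0.185), and the rest of this sum is *Alox12b*. The share of *Acer1* against the acid ceramidase was 47.4% ± 1.7 in WT and spread from 32.9% to 51.9% in DKO (exact p = 0.4, adjusted 0.629). Shares of *Sptlc3*, *Sgms2* and *Tgm5* differed by 1.83 percentage points or less (exact p of 0.6 to 0.8, adjusted 0.8).

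**Figure D4:**
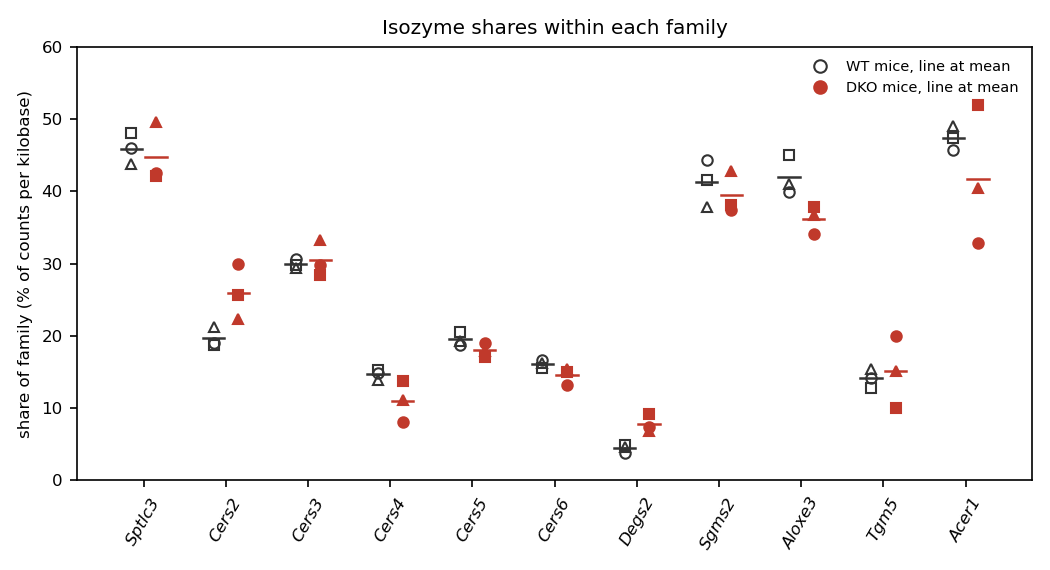
Share of each isozyme in the counts per kilobase of the compared isozymes of its family, in percent (vertical axis), for 6 mice. Open black symbols are WT and filled red symbols DKO, with circles, squares and triangles for replicates 1, 2 and 3 and a line at each mean. The WT and DKO symbols do not overlap for *Cers2*, *Cers4*, *Cers6*, *Degs2* and *Aloxe3*.

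DKO mice differed from one another more than WT mice in most genes. The SD on the log2 scale was larger in DKO for 23 of the 31 genes (74.2%), and the same share over all genes tested was 74.0%. For 10 of the 31 (32.3%), DKO replicate 1 was lowest and replicate 2 highest, against 24.2% of all genes tested. These were *Sptlc1*, *Cers4*, *Fa2h*, *Smpd1*, *Acer1*, *Cyp4f39*, *Slc27a4*, *Pnpla1*, *Nipal4* and *Tgm1*. By title number, 12 of the 31 genes were lower in DKO within both numbers, 6 were higher within both, and 13 had opposite signs. The same counts over all genes tested were not taken. The second number holds 1 mouse per genotype, and its DKO mouse is replicate 1.

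Other genes of the same pathways had no call in edgeR and 1 in DESeq2 (*Slc27a3*). They came from a list of 56 names not picked for how they moved here, although earlier results of these data were known. Of the names, 55 were found and 53 tested. Unadjusted p-values under 0.05 were found for 3 lower and 4 higher, against backgrounds of 2.54% and 4.96%, and the median log2 fold change was −0.01. Both de novo synthesis with its regulators (9 tested) and ceramide breakdown with sphingosine phosphate (10 tested) had 0 with an unadjusted p under 0.05 and 0 called in edgeR. Very long chain fatty acids and omega-hydroxylation (10 tested) had 2 lower and 2 higher, glucosylceramide and sphingomyelin turnover (10 tested) had 1 higher, and acylceramide processing (14 tested) had 1 in each direction.

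The smallest p-value of these belonged to *Elovl4*, the elongase that makes the ultra-long fatty acids of acylceramides. It held 10449, 10221 and 8209 normalized counts in WT and 4677, 6036 and 5860 in DKO. Every DKO library was below every WT library, with a log2 fold change of −0.80 (SE 0.15, edgeR adjusted p = 0.168, n = 3 per group). DESeq2 gave an adjusted p of 0.0012, and over the alternatives it ranged from 2.66e-06 to 0.72. *Hsd17b12*, the ketoacyl reductase of the same elongation cycle, had means of 1698 ± 96.4 in WT and 1190 ± 142 in DKO, without overlap, and a log2 fold change of −0.51 (SE 0.13, edgeR adjusted p = 0.298, n = 3 per group). The acyl-CoA synthetase *Slc27a3* held 119, 121 and 137 in WT and 252, 370 and 178 in DKO, with a log2 fold change of 1.08 (SE 0.25, edgeR adjusted p = 0.253, n = 3 per group). DESeq2 called it (log2 fold change 1.07, adjusted p = 0.0142), and over the alternatives the adjusted p ranged from 0.0059 to 0.84. *Slc27a1*, a fatty acid transporter of muscle and fat, and *Smpd3*, a neutral sphingomyelinase, had log2 fold changes of 0.55 and 0.47, also without overlap (edgeR adjusted p of 0.426 and 0.467, n = 3 per group).

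Markers of other skin compartments differed between the groups in their summed levels. In bulk skin, fewer cells of a type and less RNA per cell cannot be told apart. A list of 14 sebaceous gland genes summed to 2493 to 2899 CPM in WT and to 1079, 1835 and 1372 CPM in DKO. Most of the difference in this sum lay in *Scd1*, the gene with the highest counts of the list. Its mean normalized count was 22619 in WT and 9151 in DKO (n = 3 each). The log2 fold change of *Scd1* was −1.31 (SE 0.19, edgeR adjusted p = 0.0617, n = 3 per group). The study, which used DESeq2, named *Scd1* among the genes lower in P4 DKO skin and reported diminished sebaceous glands in adult DKO mice. A sum without *Scd1* was not taken. Of the 14 genes, 12 were lower, 9 with an unadjusted p under 0.05 against a background of 2.54%, and none was at 0 in any library. A list of 7 inner root sheath genes of the hair follicle summed to 11810 to 13481 CPM in WT and to 4761, 11432 and 8614 CPM in DKO. All 7 were lower, 3 with an unadjusted p under 0.05 against the same background. Both lists had the order of DKO replicates 1, 3 and 2, from lowest to highest, that *Fa2h* and *Cers4* had. The lists of basal epidermis, leukocytes and melanocytes had it too, as did 24.2% of all genes tested. The part of these lists in the values of *Fa2h* and *Cers4* was not tested.

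For the compartment in which the barrier lipids are made, a list of 18 suprabasal epidermis genes summed to 9929 to 10156 CPM in WT and 11473 to 13676 CPM in DKO. Of the 17 tested, 7 were lower and 10 higher, with a median log2 fold change of 0.09. The groups did not overlap for 3 lower (*Krt77*, *Flg2* and *Dsg1a*) and 4 higher, against backgrounds of 5.96% and 7.24%. Most of the difference in the sum lay in *Krt1* and *Krt10*, the main keratins of these layers, with log2 fold changes of 0.79 and 0.47 (edgeR adjusted p of 0.202 and 0.352, n = 3 per group). Without these 2 genes the list summed to 6068 to 6607 CPM in WT and 6206 to 7342 CPM in DKO, with overlap. *Krt2* was near the floor, with 0 to 9 counts per library, and was not tested. The 31 barrier lipid genes summed to 2527 to 2720 CPM in WT and 2198 to 2723 CPM in DKO. Among the 31, *Fa2h* and *Cers4* had the largest falls in mean normalized count. *Fa2h* had 2354.5 in WT and 877.4 in DKO, and *Cers4* had 2176.0 and 1463.3. A sum without *Fa2h* and *Cers4* was not taken. Set against the suprabasal sum the 31 genes stood at 26.8%, 27.4% and 25.2% in WT and at 18.2%, 19.9% and 21.0% in DKO, without overlap. Set against the list without *Krt1* and *Krt10*, an alternative chosen after seeing the data, they stood at 41.2%, 43.1% and 41.6% in WT and at 35.4%, 37.1% and 37.4% in DKO. With the suprabasal sum as library size, the median log2 fold change of the 31 genes was −0.35 and that of all genes −0.28, and 16 of the 31 had an unadjusted p under 0.05 against a background of 21.7%. With that scaling *Degs2* and *Alox12b* were the only 2 of the 31 genes with a log2 fold change above 0, so 10 of the 12 genes that were higher with TMM were lower. Skeletal muscle genes were higher in DKO for 14 of 15, all 14 with an unadjusted p under 0.05 against a background of 4.96%, and none was at 0. The other 7 lists (basal epidermis, adipocytes, dermal fibroblasts, leukocytes, melanocytes, red blood cells and endothelium) had DKO sums of 0.857 to 1.25 times WT. What part these lists have in the values of the barrier lipid genes was not tested.

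**Figure D5:**
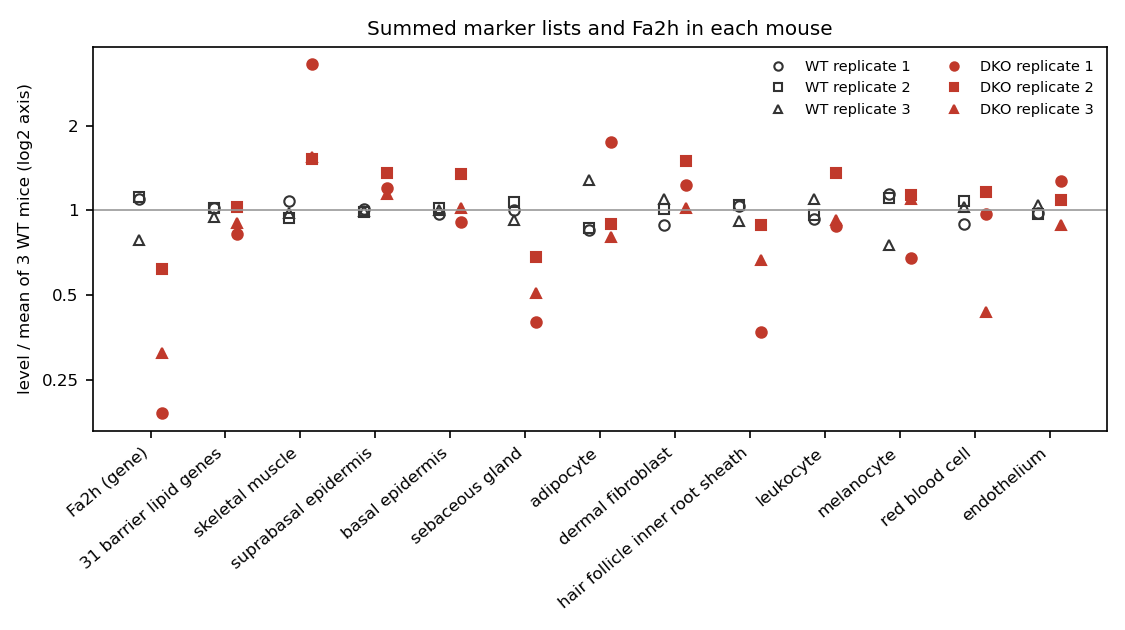
Summed CPM of each marker list and of the 31 barrier lipid genes, and the normalized count of *Fa2h*, each divided by its mean over 3 WT mice (vertical axis, log2 scale). Open black symbols are WT and filled red symbols DKO, with circles, squares and triangles for replicates 1, 2 and 3. Among DKO mice, *Fa2h* and the sebaceous gland, inner root sheath, basal epidermis, leukocyte and melanocyte lists are lowest in replicate 1 and highest in replicate 2.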

How the data were processed

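RNA-Seq counts of P4 back skin were read for 3 WT and 3 DKO mice, grouped by the labels. Per the labels and methods, the authors removed rRNA, used an NEBNext Ultra II library kit and Illumina paired ends, and ran Trimmomatic 0.36 for trimming, STAR 2.5.2b for mapping to GRCm38 and featureCounts (Subread 1.5.2) for counting. The deposited values are raw counts per gene. Strand use and the treatment of reads that map to several genes are not given in the sources used here. Symbols were found for 48970 of 49315 identifiers (99.3%).

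Counts were tested in R 4.3.3 with edgeR 4.0.16 (filterByExpr, TMM, quasi-likelihood F test, Benjamini-Hochberg adjustment over 20168 genes). A normalized count is the count over the library's effective size, times the mean effective size, and RPKM uses the same sizes and the deposited exon length. A standard error is the log2 fold change over the square root of F. DESeq2 1.42.0, named in the study's methods, was the main alternative, with other scalings, filters, a block by title number and left-out replicates. The block in DESeq2 was chosen after seeing the data. Scripts were tested on simulated data. Nothing says whether spread between mice includes technical error, and no 2 libraries agreed within sampling noise.

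The 31 genes, the pathway and marker lists and the tests were chosen with earlier results of these data known. Values per library are given for members with an unadjusted p under 0.05 or separate groups and for the highest per length in each role. The 5 pathway genes with the smallest p are named. Names of marker genes were added beside their lists.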

Additional observations from a re-analysis of the deposited data

How the results depend on the processing

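The count of 31 barrier lipid genes called was 0 with RLE size factors, total counts, muscle genes left out of library sizes, the suprabasal sum as library size, a minimum of 10 counts in every library, the block by title number, the first title number alone and no threshold on the fold change. In these settings 0.0645% (first title number alone) to 0.228% (suprabasal sum) of all genes were called. The count was 1, *Fa2h*, with DESeq2, where 0.783% of genes were called. It was also 1, *Fa2h*, with no filter on low counts (adjusted p = 3.9e-05, 0.624% called) and without DKO replicate 2 (adjusted p = 0.0282, 0.159% called). With DESeq2 and the block it was again *Fa2h* alone (adjusted p = 8.15e-08, 0.816% called). Leaving out 1 replicate at a time gave 0 to 1 called (backgrounds 0.00992% to 0.159%), 4 to 10 with an unadjusted p under 0.05 (4.25% to 12.4%), 8 to 16 without overlap (18.1% to 29.3%), a median log2 fold change of −0.10 to −0.02 and 4 to 13 pathway genes with an unadjusted p under 0.05, and each highest count was without DKO replicate 2. Over left-out replicates the log2 fold change also ran from −0.73 to −0.12 for *Slc27a4*, from −0.59 to −0.26 for *Acer1*, from −0.57 to −0.25 for *Cyp4f39* and from −0.40 to −0.14 for *Sptlc3*. Of the pathway genes, *Slc27a3* was called with DESeq2, with and without the block, and with no filter on low counts, and *Elovl4* with the suprabasal sum as library size (adjusted p = 0.0321). With the suprabasal sum as library size, 16 genes had an unadjusted p under 0.05, 17 did not overlap (background 35%), the median was −0.35 and 19 pathway genes had an unadjusted p under 0.05. With the 4 mice of the first title number, 18 did not overlap (background 34.6%), the median was −0.14 and 4 pathway genes had an unadjusted p under 0.05. Smaller groups separate more often by their construction, and the suprabasal sum as library size lowers values across genes. The cause of the other shifts was not tested.

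The labels do not say what the title number marks. Correlations of deviations between WT and DKO mice that share it ran from −0.02 to 0.22, and between those that do not from −0.14 to −0.10. Deviations from a group mean sum to 0, so these correlations depend on one another. They cannot show whether mice that share the number were closer. Not every one of the 5 correlations between mice that share it was over 0.1, the limit set for a pairing. The number was used only as an alternative block. In edgeR with this replicate block, 0 genes were called, 6 had an unadjusted p under 0.05 (background 8.95%), 8 did not overlap, the median was −0.06, and the adjusted p of *Elovl4* was 0.0338. DESeq2 with the block gave adjusted p-values of 0.0252 for *Cers4* and 0.0488 for *Degs2*, where 1.47% of genes had an adjusted p under 0.05.

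Signs turned for genes near 0, with log2 fold changes as follows. With the suprabasal sum as library size they were −0.055 for *Cers2*, −0.16 for *Sgms1*, −0.26 for *Sgms2*, −0.23 for *Smpd1*, −0.24 for *Pnpla1*, −0.24 for *Abhd5*, −0.14 for *Nipal4*, −0.15 for *Lipn*, −0.12 for *Aloxe3* and −0.18 for *Sdr9c7*. That scaling lowered values across genes, with a median over all genes tested of −0.28 against 0.02 in the main fit. With total counts *Sgms2* was at −0.0047. With the first title number alone, *Sgms2* was at −0.030, *Psap* at 0.076, *Lipn* at −0.042 and *Tgm1* at 0.038. Leaving out 1 replicate at a time moved *Kdsr* from −0.30 to 0.050, *Degs1* from −0.15 to 0.022, *Sgms2* from −0.049 to 0.093, *Smpd1* from −0.060 to 0.16, *Psap* from −0.22 to 0.10, *Asah1* from −0.20 to 0.058, *Pnpla1* from −0.15 to 0.27, *Abca12* from −0.096 to 0.023 and *Tgm1* from −0.44 to 0.074. Among shares, the DKO minus WT difference over left-out replicates ran from −3.54 to 0.207 percentage points for *Sptlc3*, from −0.842 to 1.58 for *Cers3* and from −1.54 to 3.47 for *Tgm5*, which was −0.901 with the first title number alone. Each of these genes had an adjusted p over 0.05 in the main test, and the cause of the other turns was not tested. With 3 mice per group, the spread between mice limits these values more than counting error, which is small at 85 counts or more per gene and library.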
